A study of Mus musculus with 8 samples.

Results

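Runx1, Runx2, Runx3 and Cbfb encode subunits of the core-binding factor, in which a Runx protein joins the Cbfb product. Their transcripts are described here in the mouse inner cell mass (ICM), the ICM of blastocysts held in diapause, and the epiblast after implantation. The 4 genes were taken by symbol out of 38924 genes in the table, and the set was chosen by the high Runx1 level in diapaused ICM and its near absence in epiblast. That level is therefore a description, and Runx1 is tested in no comparison.

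Each Runx protein is a DNA-binding subunit that recognises a short motif through its Runt domain. Cbfb encodes the shared partner, which does not bind DNA itself and strengthens the binding of whichever Runx protein it joins. Runx1 is best known for blood stem cell formation, Runx2 for bone formation, and Runx3 for sensory neurons and T lymphocytes.

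RNA sequencing covered 3 libraries of diapaused ICM, 2 of post-implantation epiblast and 3 of ICM, all C57BL/6, with no engineered allele named in the labels. For the diapaused group, tamoxifen and 0.5 mg of Depo Provera were given on day 3.5 and blastocysts were collected 5 days later. The epiblast came from embryos of day 6.5 and the ICM from untreated blastocysts of day 3.5. Each library pooled lysates of about 50 embryos, the trophectoderm of blastocysts was removed with antibody and complement, and the RNA was amplified. Hormone treatment, time in the uterus and diapause were thus changed together between diapaused ICM and ICM and cannot be told apart.

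The values are the authors' adjusted TPM, a length-scaled transcript level whose adjustment and read depth are not stated in the sources used here. Column sums ran between 720674 and 1179026, and between 14634 and 15130 genes reached a level of 1 in a library. Marker genes were read beside the labels: Fgf5 stood at 145 and 68.9 in epiblast against at most 1.07 in any ICM library, while Nanog was at 120 to 155 in diapaused ICM and 102 to 244 in ICM. Fgf5 bears only on the epiblast label, and the overlapping Nanog ranges cannot tell diapaused ICM from ICM. The endothelial marker Cdh5 was at most 0.497 in any library and the uterine marker Pgr at most 0.133, while Pecam1, which pluripotent cells also express, was at 7.14 to 23.4 in diapaused ICM, 1.27 and 2.05 in epiblast, and 55.8 to 74.0 in ICM. All 19 uterine markers summed to 16.7, 9.27 and 19.0 in diapaused ICM, 18.0 and 15.4 in epiblast, and 16.8, 28.1 and 27.0 in ICM.

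The distal promoters of the 3 Runx genes share a doubled Runx motif, and it is printed because it is a sequence feature that all 3 subunit genes have in common. RefSeq promoter windows of the mouse build GRCm38.p6 were searched, each with 250 bases before and 50 after a transcript start, for TGTGGT and its reverse complement ACCACA. The capitals mark ACCACA in 30-base windows read 5′ to 3′ on the strand of the gene, which lie at chr16:92826025-92826054 (minus strand) for Runx1, chr17:44814583-44814612 (minus strand) for Runx2 and chr4:135120503-135120532 (plus strand) for Runx3.
Runx1: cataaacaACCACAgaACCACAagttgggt
Runx2: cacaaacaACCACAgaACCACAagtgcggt
Runx3: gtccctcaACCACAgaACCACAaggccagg

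The first match of the pair began 29 bases from the start site in Runx1 (counting the start as 1), 24 bases from it in Runx2, and 134 bases before it in Runx3. The 3 windows had an identical run of 18 bases, and Runx1 and Runx2 one of 22 bases. At least 1 match on either strand was found in 16.8% of 32851 promoter windows. A pair on 1 strand, with starts no more than 10 bases apart, was found in 34 windows, or 0.103% of them, and these 3 distal promoters are among the 34. A match is only a match of letters, and nothing in these data measured binding.

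Runx1 has a distal and a proximal promoter that differ in composition. The 250 bases upstream of each start are printed to show that contrast, at chr16:92826075-92826324 for the distal and chr16:92697330-92697579 for the proximal start, both on the minus strand.
Runx1 distal: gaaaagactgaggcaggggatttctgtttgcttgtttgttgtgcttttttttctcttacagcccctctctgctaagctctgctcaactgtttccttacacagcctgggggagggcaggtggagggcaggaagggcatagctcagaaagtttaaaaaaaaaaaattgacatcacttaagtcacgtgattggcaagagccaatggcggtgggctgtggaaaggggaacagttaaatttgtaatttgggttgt
Runx1 proximal: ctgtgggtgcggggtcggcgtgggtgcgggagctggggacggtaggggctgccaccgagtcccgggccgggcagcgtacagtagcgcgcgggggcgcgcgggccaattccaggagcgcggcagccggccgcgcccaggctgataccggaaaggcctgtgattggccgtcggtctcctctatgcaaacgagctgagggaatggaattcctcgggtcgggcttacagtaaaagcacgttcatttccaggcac

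The distal stretch was 45.6% G and C with 2 CpG pairs, and the proximal stretch 67.6% with 27. The table lists 3 Runx1 transcripts, of which 1 begins within 1000 bases of the distal start and 1 within 1000 bases of the proximal start. Levels are summed per gene, so the share of each promoter cannot be read from them. The Cbfb window and the proximal windows of Runx1 and Runx3 held no match to the searched letters. Runx2 had 1 window only, so no proximal window of it was searched. Of its 13 listed transcripts, 7 begin within 1000 bases of that start. That window held 3 matches, the pair and 1 more that began 80 bases before the start.

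Runx1 was high in all 3 diapaused ICM libraries, intermediate in ICM and close to nothing in epiblast. It stood at 85.0, 97.5 and 98.8 adjusted TPM in diapaused ICM, at 0.326 and 0.442 in epiblast, and at 10.2, 17.7 and 12.1 in ICM. The 3 groups did not overlap, and the gap between the lowest diapaused ICM library and the highest ICM library was wider than the range within either. Runx1 was chosen for its diapaused ICM and epiblast levels, so this separation is a description only. Of all genes tested, 30.7% did not overlap between diapaused ICM and ICM, 59.0% between epiblast and ICM, and 61.4% between diapaused ICM and epiblast. Means were 93.7 ± 7.63 in diapaused ICM (SD, n = 3), 0.384 ± 0.0817 in epiblast (n = 2) and 13.3 ± 3.92 in ICM (n = 3).

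The ratio of the diapaused ICM mean to the ICM mean was 7.02 for Runx1, and its epiblast mean was 34.8-fold below the ICM mean. On the log2(value + 1) scale, which understates differences of low values, Runx1 differed by 2.75 ± 0.24 (SE) between diapaused ICM and ICM, by -3.34 ± 0.26 between epiblast and ICM, and by 6.10 ± 0.26 between diapaused ICM and epiblast. In rank, Runx1 lay above 96.4 to 96.8% of all genes in the diapaused ICM libraries, above 52.8 and 54.9% in epiblast, and above 86.8 to 90.6% in ICM. In pooled tissue, fewer cells of a type and less RNA per cell cannot be told apart.

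Runx1 shares 106 exon bases with the antisense gene Gm26626 in the GENCODE annotation, and whether counting used strand is not stated in the sources used here. Gm26626 was at 4.25, 4.21 and 2.09 in diapaused ICM, at 0.0534 and 0.119 in epiblast, and at 0.0938, 0.615 and 0.875 in ICM. It was picked for the overlap. Diapaused ICM lay above every other library, while epiblast and ICM overlapped and were all under 1. Diapaused ICM and ICM did not overlap in 30.7% of all genes tested. Reads of the shared bases could count to either gene, and the part of this overlap in the Runx1 level was not tested.

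Runx2 and Runx3 were near the bottom of the scale throughout. Neither reached 1 in 2 libraries, the filter for testing, so their values carry no test. Runx3, a T cell and neuronal factor, was at 0.211, 0.358 and 0.398 in diapaused ICM, at 0.756 and 1.64 in epiblast, and at 0.172, 0.467 and 0.188 in ICM. Both epiblast libraries were above all others, while diapaused ICM and ICM overlapped.

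Runx2, the bone factor, was at 0.0193, 0.0957 and 0.0582 in diapaused ICM, at 0.422 and 0.0898 in epiblast, and at 0.0158, 0.0487 and 0.0196 in ICM. Epiblast replicate 1 alone exceeded 0.1, and epiblast replicate 2 fell within the range of diapaused ICM. These levels are too low to order the groups.

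Cbfb, the common partner, was present in every library and followed another order than Runx1, with epiblast highest. It stood at 5.39, 5.94 and 9.52 in diapaused ICM, at 25.4 and 19.8 in epiblast, and at 7.52, 11.6 and 15.8 in ICM. Epiblast lay above every other library, and diapaused ICM overlapped ICM. Means were 6.95 ± 2.24 in diapaused ICM (SD, n = 3), 22.6 ± 3.99 in epiblast (n = 2) and 11.7 ± 4.14 in ICM (n = 3).

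Cbfb passed the test in neither comparison with ICM. Between diapaused ICM and ICM the log2 difference was -0.65 ± 0.31 (SE), with a 95% interval of -1.34 to 0.04, an unadjusted p of 0.0618 and a limma adjusted p of 0.209. Between epiblast and ICM it was 0.94 ± 0.34, with a 95% interval of 0.17 to 1.72, an unadjusted p of 0.0223 and a limma adjusted p of 0.0659. The epiblast difference passed under quantile normalization (adjusted p = 0.0284) and without ICM replicate 3 (adjusted p = 0.0425). Across all 17698 genes tested, 13.3% were called between diapaused ICM and ICM, 7.52% higher and 5.81% lower, and 30.1% between epiblast and ICM, 16.7% higher and 13.3% lower. In counts these were 1331 higher and 1029 lower, and 2963 higher and 2361 lower; after rescaling without the most abundant genes they were 1042 and 1400, and 2023 and 2665. Both comparisons use the same ICM libraries.

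**Figure D1:**
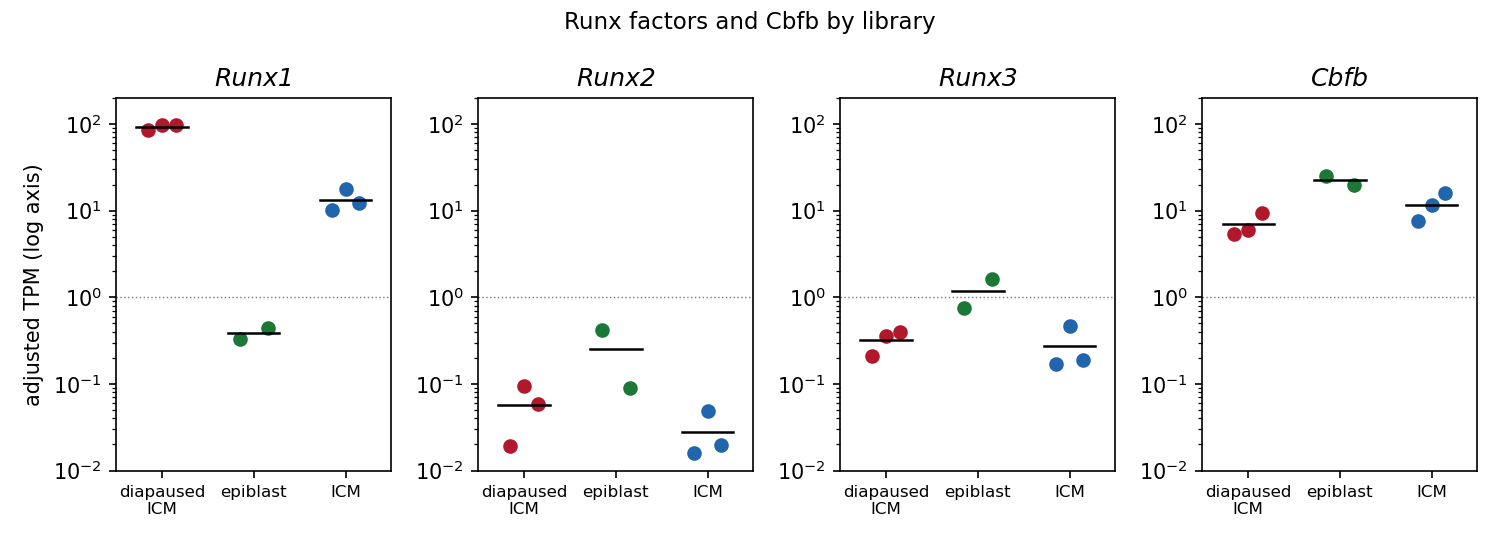
Level of each gene in every library, in adjusted TPM on a log axis, with 1 point per library and a bar at the group mean; the dotted line marks a level of 1. Runx1 is at 85.0 to 98.8 in diapaused ICM and at 0.326 and 0.442 in epiblast, whereas Cbfb is highest in epiblast at 19.8 and 25.4.

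Between diapaused ICM and ICM, 1 of the 4 genes had groups that did not overlap, and 30.7% of all genes tested did so. Between epiblast and ICM this was 4 of 4, against 59.0% of all genes tested, and between diapaused ICM and epiblast 3 of 4, against 61.4%. Runx2 and Runx3 are outside that background because they missed the filter, and Runx1 was selected on this pattern, so nothing is read from these counts.

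Runx1 made up nearly the whole Runx level in both kinds of ICM and a minor part in epiblast. Its share of the summed Runx1, Runx2 and Runx3 level was 99.7, 99.5 and 99.5% in diapaused ICM, 21.7 and 20.4% in epiblast, and 98.2, 97.2 and 98.3% in ICM. Runx3 held 50.3 and 75.5% of the sum in epiblast and at most 2.56% in any ICM or diapaused ICM library. The epiblast sums themselves reached at most 2.17 adjusted TPM.

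The balance between DNA-binding subunits and their partner moved with Runx1. The summed Runx level per Cbfb level was 15.8, 16.5 and 10.4 in diapaused ICM, 0.0592 and 0.110 in epiblast, and 1.38, 1.57 and 0.781 in ICM. Runx transcripts thus exceeded Cbfb in every diapaused ICM library, were near it in ICM, and were far below it in epiblast. This ratio is of transcripts per length and is driven by Runx1, so it carries no test.

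**Figure D2:**
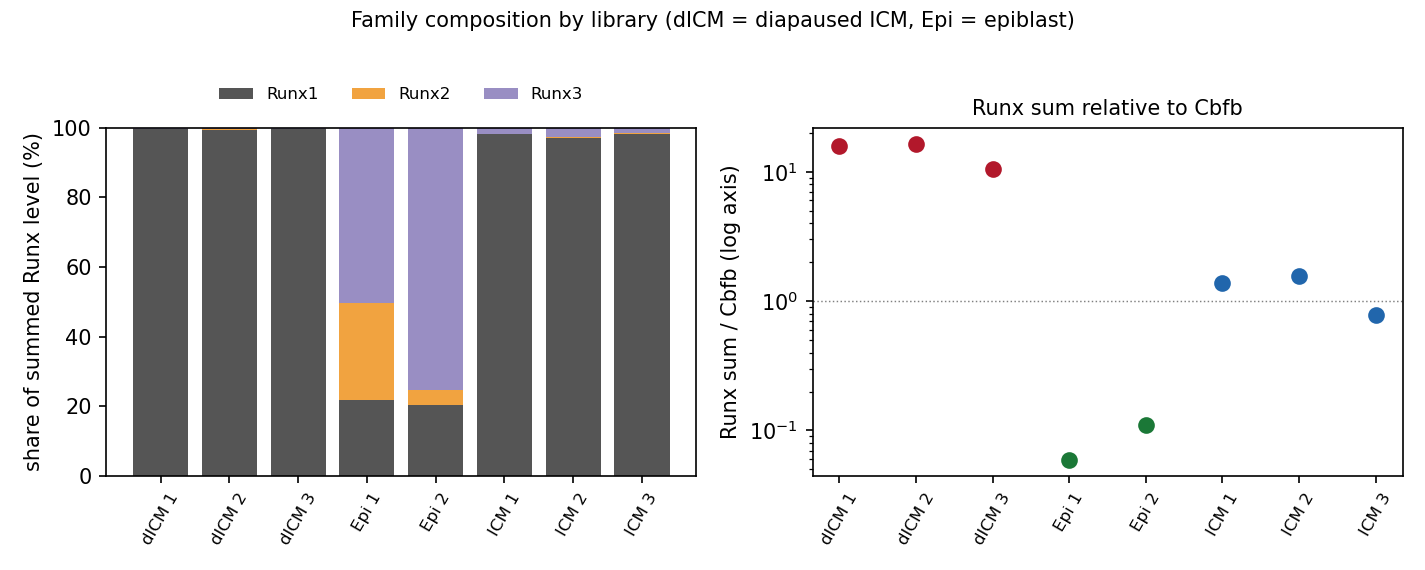
Left, stacked bars of the share of each Runx gene in the summed Runx level (%), per library; right, the summed Runx level divided by the Cbfb level on a log axis, 1 point per library. Runx1 fills 97.2% or more of each ICM and diapaused ICM bar, and the ratio is 10.4 to 16.5 in diapaused ICM, 0.0592 and 0.110 in epiblast, and 0.781 to 1.57 in ICM.

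The genes whose pattern was most like Runx1 were sought by Pearson r on log2(value + 1) over the 8 libraries, among 4768 genes with a mean of at least 10 in some group. They were Tfpi (r = 0.996), S100a11 (0.993), Atp6v0b (0.989), Pgam2 (0.988) and Lhfpl2 (0.988). Tfpi, an inhibitor of tissue factor in coagulation, averaged 38.8 ± 3.11 in diapaused ICM, 2.01 ± 0.18 in epiblast and 10.9 ± 1.48 in ICM (SD, n = 3, 2 and 3). S100a11, a calcium-binding protein gene, averaged 358 ± 73.6 in diapaused ICM, 16.4 ± 2.17 in epiblast and 78.0 ± 8.59 in ICM.

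For Cbfb the 5 nearest genes included Ube2z (r = 0.975), Tma7 (0.974) and Eif3c (0.972). Ube2z, a ubiquitin-conjugating enzyme gene, averaged 13.8 ± 2.97 in diapaused ICM, 23.8 ± 0.77 in epiblast and 17.1 ± 2.38 in ICM. These r values describe 8 libraries that fall into 3 groups, so any gene that steps with the groups scores high.

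Runx proteins repress transcription through Groucho/TLE proteins and other corepressors, and 16 of 18 listed corepressor genes were tested. Between diapaused ICM and ICM 1 rose and 1 fell, with a list median of 0.04 on the log2 scale and a median over all genes of 0.00. Over all genes tested, 7.52% rose and 5.81% fell in diapaused ICM, and 16.7% rose and 13.3% fell in epiblast. These shares are the background for the counts of every list below, and no list was tested against them. Aes, a short Groucho relative, rose by 1.01 (adjusted p = 0.0112), at 4.09 ± 0.59 in diapaused ICM and 1.53 ± 0.18 in ICM. Runx1t1, known as ETO in the leukaemic fusion with Runx1, had 2.58, 0.327 and 0.288 in diapaused ICM, 0.511 and 0.112 in epiblast, and 6.00, 5.66 and 3.51 in ICM.

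Runx1t1 fell by 1.70 in diapaused ICM (adjusted p = 0.0256) and by 2.20 in epiblast (adjusted p = 0.00777) relative to ICM. Leaving out ICM replicate 1 or 2, replicate 2 or 3 of the diapaused ICM, or either epiblast library ended the diapaused ICM call (adjusted p up to 0.0900), as did having no filter on low values (0.142). The epiblast call was lost without epiblast replicate 2 (0.0705). Tle3, the most abundant Groucho gene, was at 56.3, 55.9 and 77.9 in diapaused ICM, 38.3 and 29.2 in epiblast, and 35.9, 37.9 and 50.3 in ICM, and passed in neither comparison with ICM.

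Tle1 averaged 3.04 ± 0.55 in diapaused ICM, 0.803 ± 0.705 in epiblast and 2.45 ± 1.89 in ICM, and Tle4 was at 1.95, 2.86 and 4.19 in diapaused ICM, 6.30 and 4.46 in epiblast, and 4.36 to 5.68 in ICM. The Runx1t1 relative Cbfa2t2 averaged 14.4 ± 5.74 in diapaused ICM, 6.97 ± 1.29 in epiblast and 17.7 ± 8.21 in ICM. None of these passed the limma test in either comparison, while Tle2 and Cbfa2t3 stayed below 0.6 everywhere and were not tested. In epiblast 3 of the 16 corepressors fell relative to ICM, with a list median of -0.51 beside 0.14 over all genes. They were Runx1t1, Ncor1, a nuclear receptor corepressor, by 1.54 (adjusted p = 0.00121), and Bmi1, a Polycomb subunit, by 1.13 (adjusted p = 0.00396).

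All 16 listed coactivators were tested, and in diapaused ICM 1 rose and 2 fell relative to ICM (list median 0.17). Over all genes tested, 7.52% rose and 5.81% fell. Alyref, an export factor known as a Runx1 coactivator, fell by 1.26 (adjusted p = 0.00494), with 16.1, 13.9 and 17.9 in diapaused ICM against 36.3, 37.7 and 44.3 in ICM. Men1, the menin scaffold of a histone methyltransferase complex, rose by 1.44 (adjusted p = 0.0251), and Prmt1, an arginine methyltransferase, fell by 0.86 (adjusted p = 0.0441). The Prmt1 call was lost without any single library (adjusted p 0.0511 to 0.127), and the Men1 call when ICM replicate 1 or 3, replicate 1 or 2 of the diapaused ICM, or either epiblast library was left out (up to 0.0839).

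In epiblast 3 coactivators fell relative to ICM (list median -0.26), beside 13.3% of all genes tested. Kat6b, a histone acetyltransferase, fell by 2.75 (adjusted p = 0.00213), with 6.14 and 5.51 in epiblast against 49.8, 65.6 and 27.5 in ICM. Wwtr1, the Hippo pathway effector TAZ, fell by 2.37 (adjusted p = 0.000684), with 3.33 and 5.88 in epiblast against 31.1, 21.5 and 30.3 in ICM. Brpf1, a scaffold of Kat6 complexes, fell by 1.00 (adjusted p = 0.0140), a call lost without either epiblast library (0.0597 and 0.103).

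Enzymes that modify or degrade Runx proteins were all measured, and of 19 tested 1 rose and 2 fell in diapaused ICM (list median 0.13). The shares over all genes tested were 7.52% higher and 5.81% lower. Nedd4, a ubiquitin ligase, rose by 1.78 (adjusted p = 0.00164), with 118, 118 and 130 in diapaused ICM against 28.6, 32.8 and 44.5 in ICM. In epiblast Nedd4 was at 107 and 143, which was 1.80 higher than ICM on the log2 scale (adjusted p = 0.00147). Cdc20, an activator of the anaphase-promoting complex, fell by 1.89 in diapaused ICM (adjusted p = 0.0171), and Skp2, an F-box subunit, by 0.91 (adjusted p = 0.0346).

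The Cdc20 call was lost without ICM replicate 1 (adjusted p = 0.0648), and the Skp2 call when any ICM library, or replicate 1 or 2 of the diapaused ICM, was left out (0.0692 to 0.103). In epiblast 3 of these enzymes rose and 2 fell relative to ICM (list median -0.05), beside 16.7% and 13.3% of all genes tested. Besides Nedd4, the arginine methyltransferase gene Prmt6 rose by 1.36 (adjusted p = 0.00774), a call lost without epiblast replicate 1 (0.0798), and the cell cycle kinase gene Cdk6 by 0.97 (adjusted p = 0.0361), a call lost without ICM replicate 1 or 3 or either epiblast library (0.0883 to 0.153). Mdm2, the p53 ubiquitin ligase gene, was 1 of those that fell, by 1.30 (adjusted p = 0.0447), and is named after its values were seen. The Mdm2 call was lost without any library but ICM replicate 3 (up to 0.248).

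**Figure D3:**
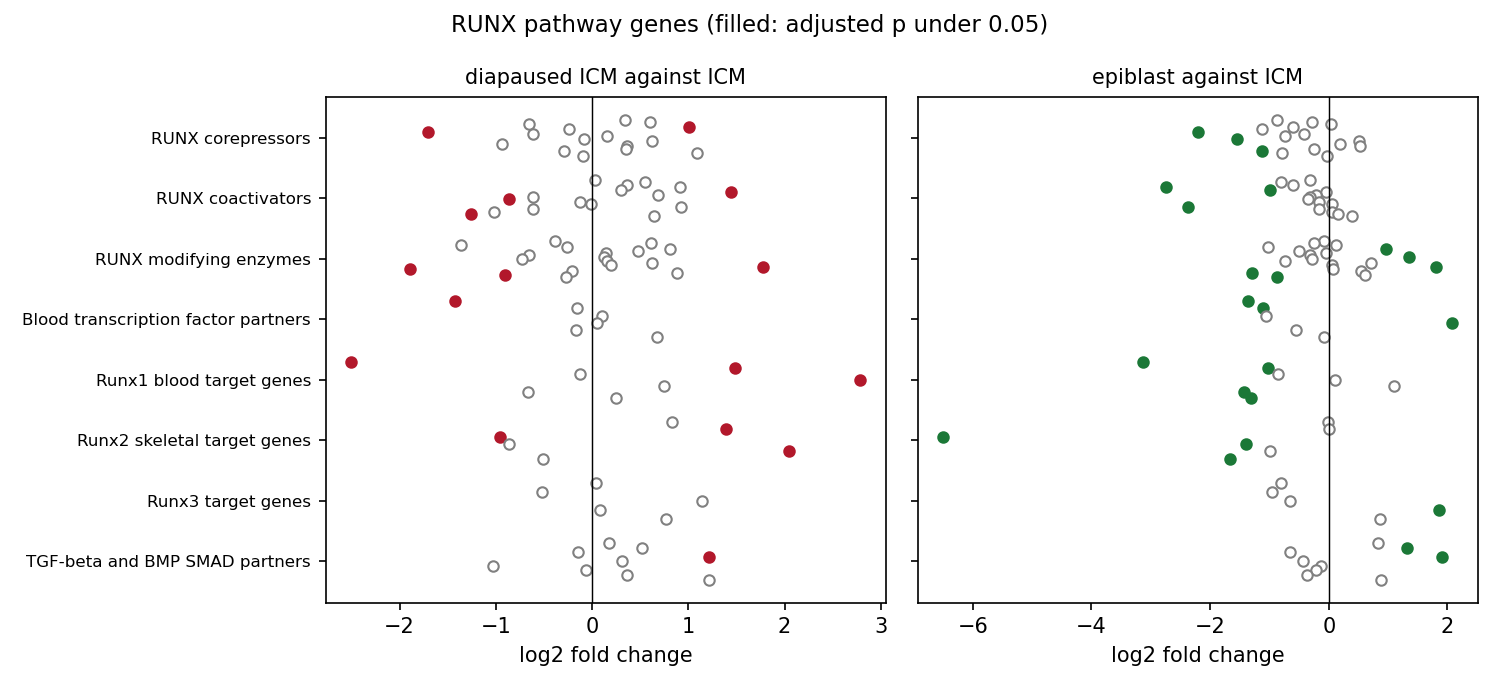
Log2 fold change of each tested gene of 8 Runx pathway lists, in diapaused ICM against ICM (left) and epiblast against ICM (right); each point is 1 gene, spread vertically only to separate points, and filled points have an adjusted p under 0.05. In diapaused ICM the list medians lie between -0.06 and 0.31, with genes on both sides of 0, and Spp1 stands lowest in epiblast at -6.50.

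In blood, Runx1 works with factors such as Tal1, Gata1, Fli1 and Spi1. Of 18 listed partners, 12 missed a level of 1 in 2 libraries, a filter that 17698 of all 38924 genes passed. Tal1, a master factor of blood and endothelial precursors, was at most 0.0085 in diapaused ICM, 0.0268 in epiblast and 0.0177 in ICM. Gata1, the erythroid factor, was at most 0.0737 in diapaused ICM and 0.402 in ICM, with 0.706 and 1.06 in epiblast. Spi1, the myeloid factor PU.1, was at 0.0757, 0.0139 and 8.68 in diapaused ICM, and at most 0.293 in epiblast and 0.122 in ICM, so 1 library alone carried it.

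Of the 6 partners tested, 1 fell in diapaused ICM (list median -0.06). Lmo2, a bridging subunit of blood factor complexes, had 0.0113, 0.0034 and 0.0024 in diapaused ICM, 0.0341 and 0.0528 in epiblast, and 2.11, 0.837 and 2.43 in ICM. It fell by 1.42 in diapaused ICM (adjusted p = 0.0163) and by 1.37 in epiblast (adjusted p = 0.0168). The diapaused ICM call was lost without ICM replicate 1 or 3 (0.0708 and 0.0694), and the epiblast call without those or either epiblast library (up to 0.0747).

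In epiblast 1 partner rose and 2 fell (list median -0.81). Myb, a factor of blood progenitors, rose by 2.08 (adjusted p = 0.00519), with 5.91 and 1.78 in epiblast against at most 0.113 in ICM. Ldb1, which bridges Lmo proteins, fell by 1.10 (adjusted p = 0.00981), a call lost without epiblast replicate 2 (0.0698).

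Of 20 genes known as Runx1 targets in blood, 13 missed the filter, which 17698 of all 38924 genes passed. Of the 7 tested, 2 rose and 1 fell in diapaused ICM (list median 0.25), beside 7.52% and 5.81% of all genes tested. Vwf, the von Willebrand clotting factor, rose by 2.79 (adjusted p = 0.000102), averaging 7.83 ± 1.01 in diapaused ICM and 0.281 ± 0.152 in ICM. Cd38, a surface NAD-hydrolysing enzyme, rose by 1.49 (adjusted p = 0.00273), with 8.94, 11.3 and 10.3 in diapaused ICM against 3.64, 2.10 and 3.32 in ICM. Csf3r, the granulocyte colony-stimulating factor receptor, fell by 2.50 (adjusted p = 0.00473), with 0.510, 0.955 and 1.67 in diapaused ICM against 5.04, 11.1 and 18.7 in ICM.

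In epiblast 4 of these 7 fell relative to ICM (list median -1.03), beside 13.3% of all genes tested. Csf3r fell by 3.14 (adjusted p = 0.00146), Alox12, a platelet lipoxygenase, by 1.42 (0.00901) and Cd38 by 1.03 (0.0134). The Cd38 call was lost without either epiblast library (adjusted p up to 0.0929), and that of Alox12 without epiblast replicate 1 (0.0877). The macrophage receptor Csf1r, another known target, was at most 0.0204 in diapaused ICM, 0.0883 in epiblast and 0.0314 in ICM.

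Known skeletal targets of Runx2 were tested for 6 of 19 genes, while Runx2 itself was near 0. In diapaused ICM 2 rose and 1 fell (list median 0.16). Vegfa, an angiogenic factor with many other regulators, rose by 2.04 (adjusted p = 0.00724), with 22.4, 14.9 and 35.4 in diapaused ICM against 7.09, 3.95 and 3.87 in ICM, and was lost with no filter on low values (0.0560). Bglap2, an osteocalcin gene with close paralogues that could share its reads, rose by 1.39 (adjusted p = 0.0167), a call lost without diapaused ICM replicate 1 or 3 (0.0559 and 0.0566). Spp1, encoding osteopontin, fell by 0.96 (adjusted p = 0.0288), a call that ended when any ICM library, or replicate 1 or 2 of the diapaused ICM, was left out (up to 0.0876).

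In epiblast 3 of the 6 fell (list median -1.19). Spp1 fell by 6.50 (adjusted p = 3.88e-06), with 0.781 and 1.22 in epiblast against 182, 180 and 176 in ICM. Alpl, the alkaline phosphatase, fell by 1.39 (0.00888), a call lost without either epiblast library (0.0592 and 0.0677). Of 5 tested Runx3 targets, Bcl2l11, the pro-apoptotic gene Bim, rose by 1.85 in epiblast (adjusted p = 0.00112), with 11.6 and 8.92 in epiblast against 2.83, 1.39 and 2.26 in ICM. In diapaused ICM 0 of the 5 passed by limma, with 2 at an unadjusted p under 0.05.

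SMAD proteins, which carry TGF-beta and BMP signals, bind Runx proteins, and 9 of 18 listed genes were tested. Smad1 rose in both comparisons, at 1.64, 0.819 and 2.18 in diapaused ICM, 4.23 and 2.07 in epiblast, and 0.196, 0.0139 and 0.0111 in ICM. The rise was 1.21 in diapaused ICM (adjusted p = 0.0305) and 1.91 in epiblast (adjusted p = 0.00396). Leaving out any ICM library, or replicate 1 or 3 of the diapaused ICM, ended the diapaused ICM call (up to 0.0912). Bmpr1a, a BMP receptor, rose by 1.31 in epiblast (adjusted p = 0.0191), a call lost without either epiblast library (0.0920 and 0.115). With no filter on low values, the diapaused ICM calls of Men1, Prmt1, Cdc20, Skp2, Bglap2, Spp1 and Smad1 and the epiblast calls of Cdk6, Mdm2 and Bmpr1a were also lost (adjusted p 0.0604 to 0.146). Among these pathway genes, quantile normalization ended the calls of Prmt1, Cdk6 and Mdm2 (0.0549 to 0.0900), rescaling without abundant genes that of Cdk6 (0.0936), and fitting only the compared groups those of Runx1t1 and Men1 in diapaused ICM, Prmt1 and Mdm2 (0.0529 to 0.0810).

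Because Runx1 is best known in blood, markers of other cell types were read beside it. The summed level of 29 blood and immune markers was 139, 59.0 and 50.7 in diapaused ICM, 40.0 and 6.74 in epiblast, and 7.21, 8.73 and 12.2 in ICM. Of 4 tested, 2 rose in diapaused ICM: Laptm5, a lysosomal membrane gene, by 3.93 (adjusted p = 0.000198), and Cd68, another lysosomal gene, by 2.53 (adjusted p = 0.00784, and 0.0673 with no filter on low values). Without these 2 genes the sum of the remaining 27 was 5.44, 8.60 and 3.86 in diapaused ICM, 37.7 and 2.75 in epiblast, and 2.29, 1.85 and 2.18 in ICM. The 2 left out were those called higher, so a smaller diapaused ICM sum follows from that choice. Every diapaused ICM library still lay above every ICM library.

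Ptprc, the defining leukocyte marker CD45, was near 0, at 0.0700, 0.399 and 0.0467 in diapaused ICM, 0.0037 and 0.0140 in epiblast, and 0.0556, 0.368 and 0.0377 in ICM. Laptm5 was at 53.2, 20.8 and 21.5 in diapaused ICM and Cd68 at 80.6, 29.6 and 25.3, both highest in replicate 1. The part of blood cells in the Runx1 levels was not tested. In epiblast 1 blood marker, Itgam, rose relative to ICM by 2.90 (adjusted p = 0.0296), resting on 37.3 in epiblast replicate 1 beside 2.09 in replicate 2, and it was lost without that library (0.113) or without ICM replicate 1 or 2 (up to 0.0718) and with no filter on low values (0.143) or with only the compared groups fitted (0.0692).

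The summed level of 18 primitive endoderm markers was highest in diapaused ICM and lowest in epiblast, the order of Runx1. It was 2743, 2538 and 2905 in diapaused ICM, 99.4 and 104 in epiblast, and 1081, 841 and 1164 in ICM. Of 17 tested, 12 rose and 1 fell in diapaused ICM (list median 1.25), and 10 fell in epiblast (list median -1.70). Srgn rose by 3.52 (adjusted p = 0.000411), Dab2 by 3.02 (0.00171) and Lama1 by 1.91 (0.00175) in diapaused ICM. In epiblast Pdgfra fell by 4.68 (adjusted p = 7.66e-06), Sparc fell by 4.08 (1.49e-05) and Lama1 fell by 3.81 (4.11e-05).

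The defining markers of primitive endoderm differed among themselves. Gata6 averaged 1.66 ± 0.32 in diapaused ICM, 0.342 ± 0.358 in epiblast and 4.11 ± 1.04 in ICM, Sox17 averaged 1.28 ± 0.27, 0.064 ± 0.019 and 0.963 ± 0.895, and Pdgfra 38.6 ± 4.46, 0.118 ± 0.0045 and 27.8 ± 4.46, in the same groups. The part of primitive endoderm in the Runx1 levels was not tested. Nor were trophectoderm genes silent: their summed level was 181, 178 and 368 in diapaused ICM, 246 and 244 in epiblast, and 160, 139 and 186 in ICM, and 2 of 13 tested rose in diapaused ICM, Gata3 by 1.95 (adjusted p = 0.00943, and 0.0702 with no filter on low values) and Ddah1 by 1.10 (0.0341, lost without any library but ICM replicate 3, up to 0.0981, with no filter, 0.107, and with only the compared groups fitted, 0.0634). In epiblast 3 of the 13 rose and 3 fell relative to ICM. Eomes, a trophoblast stem cell and gastrulation factor, rose by 2.69 (adjusted p = 0.00210), and Tead4, a Hippo pathway factor, fell by 1.99 (0.000581). Slc2a1 and Id2 also rose, and Fgfr2 and Dppa1 also fell, and Id2, Fgfr2 and Dppa1 are named after their values were seen. Without either epiblast library 1 rose and 1 fell, and without ICM replicate 1 or 3 the falls numbered 2 and 1.

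The other marker lists were read the same way. Of 6 endothelial markers tested, Vwf and Flt1, a VEGF receptor gene, rose and Pecam1 fell by 2.33 (adjusted p = 0.00520) in diapaused ICM. Flt1 rose by 1.10 there (adjusted p = 0.0481), a call lost without any single library (0.0594 to 0.132), with no filter (0.176), under quantile normalization (0.0579), after rescaling (0.0610) and with only the compared groups fitted (0.0566). It rose by 1.36 in epiblast (0.0187), a call lost without ICM replicate 3 (0.0515) or epiblast replicate 1 (0.140) or with no filter (0.0722), and Pecam1 fell by 4.59 in epiblast (0.000146). Of 4 uterine markers tested, 0 passed by limma in diapaused ICM, with 0 at an unadjusted p under 0.05, and in epiblast Krt19, a keratin gene, rose by 2.58 (0.00166) and Acta2, a smooth muscle actin gene, fell by 1.39 (0.0183), the Acta2 call being lost without ICM replicate 3 or either epiblast library (up to 0.129) or with no filter (0.0729).

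Of 14 epiblast and pluripotency markers, 2 fell in diapaused ICM and 4 rose and 9 fell in epiblast, the falls numbering 6 without epiblast replicate 1 and 5 without epiblast replicate 2. Dppa3, a germline and preimplantation gene, fell by 4.48 in diapaused ICM (adjusted p = 2.44e-05) and by 8.16 in epiblast (2.48e-06). Dnmt3b, a DNA methyltransferase gene, fell by 1.34 in diapaused ICM (0.0353), a call that ended when any ICM library, or replicate 2 or 3 of the diapaused ICM, was left out (up to 0.111) or no filter was used (0.143), and rose by 3.15 in epiblast (0.000636). Fgf5 rose by 6.30 in epiblast (2.05e-05).

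**Figure D4:**
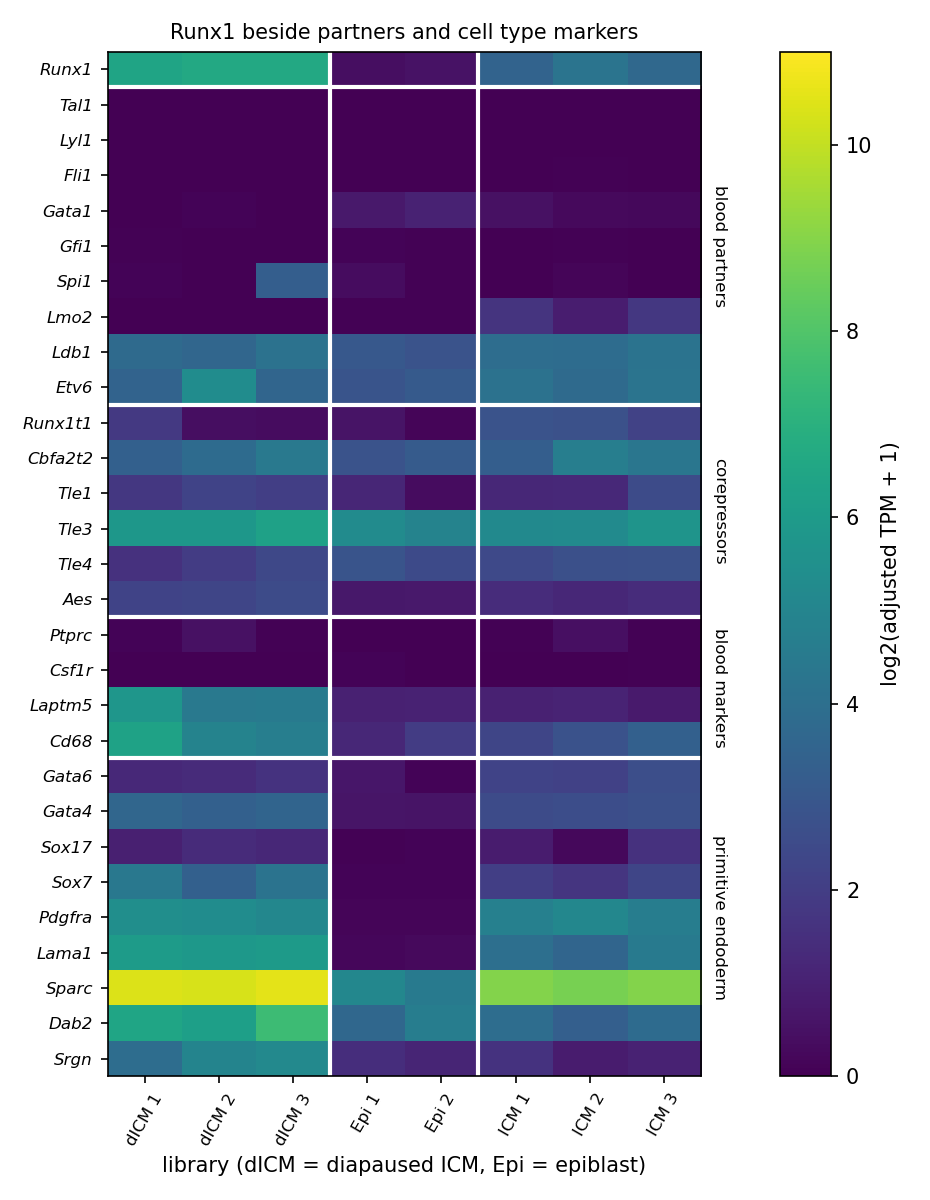
Colour shows log2(adjusted TPM + 1) of Runx1 and of selected listed genes in each library, with white lines between groups and between lists (blood partners, corepressors, blood markers, primitive endoderm). Runx1 is brightest in diapaused ICM, most blood partners are dark in every library, and Laptm5, Cd68, Dab2 and Srgn are brightest in diapaused ICM.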

How the data were processed

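The authors' deposited table gives a signal per gene named adjusted TPM. Its adjustment, the strand setting and the read depth are not stated in the sources used here, so no counting interval is given. The submitters' processing notes name Bowtie 0.12.5, DESeq and mm9, with no role stated, and the labels' protocols describe kit amplification of the RNA. The labels call the 8 libraries biological triplicates and duplicates.

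Values were transformed as log2(value + 1). Genes with at least 1 in at least 2 libraries were tested, 17698 of 38924, with limma 3.58.1 (R 4.3.3; moderated two-sided tests, trended prior, all 8 libraries, Benjamini-Hochberg over all genes tested, threshold 0.05). Where a symbol was repeated, the row with the highest mean was used. The code was tested on simulated data. The values were not counts, so no count model was run.

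Named genes are the 4 members, up to 3 called genes with the smallest adjusted p per list and comparison, and a set list of blood markers and corepressors. Defining cell type markers, such as Nanog, Cdh5, Pgr, Gata6 and Sox17, and genes most like Runx1 or Cbfb are also named. Genes named otherwise are marked as such. A few genes that count in these lists are not reported here by name. The members and the 14 gene lists were chosen with earlier results of these data known. Promoter sequences are RefSeq's for GRCm38.p6, which is not the build named in the notes, and no coordinate was converted. Alternatives covered the pseudocount, filters, scalings, prior, libraries fitted, replicate block, repeated symbols and each library left out.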

Additional observations from a re-analysis of the deposited data

How the results depend on the processing

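The count of genes called between diapaused ICM and ICM was 2360, 1278 with no filter on low values, and 1402 to 2141 without 1 library, falling most without ICM replicate 1 (1402) and ICM replicate 3 (1571). Between epiblast and ICM it was 5324, and 2008 to 5205 without 1 library, lowest without epiblast replicate 1 (2008) and epiblast replicate 2 (2843); the lone epiblast library is then assumed to vary like the other groups. The split between diapaused ICM and ICM was 1331 higher and 1029 lower, and 1042 higher and 1400 lower after rescaling without the 43 most abundant genes, where the median of all genes lay at -0.13; between epiblast and ICM it was 2963 and 2361, and 2023 and 2665 after that rescaling, where the median lay at 0.01 in place of 0.14. Cbfb between epiblast and ICM passed the threshold at 1.04 under quantile normalization, and was 0.68 to 1.17 without 1 library. Runx1 differed by -4.77 between epiblast and ICM and by 7.61 between diapaused ICM and epiblast with a pseudocount of 0.1. Same-numbered diapaused ICM and ICM libraries had deviations that correlated at 0.0175, 0.103 and 0.131, so the numbers were not taken to pair samples; with a replicate block 2004 and 4475 genes were called, and Cbfb reached 1.17 (adjusted p = 0.0247) between epiblast and ICM, while of the genes named above Prmt1 (0.0661), Skp2 (0.0602), Spp1 (0.0529), Flt1 (0.0751) and Dnmt3b (0.0543) lost their calls between diapaused ICM and ICM under the block. Of 1124 alternative values of the 67 called results of named genes, 976 kept the call, 148 lost it and 0 changed sign; the cause was not tested, and genes that missed the filter of at least 5 had no value under it. Read depth is unknown, which limits what levels under 1, such as those of Runx2 and Runx3, can show.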
